A study of Mus musculus with 2 samples.

Results

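The genes described here are 10 liver-secreted proteins of the acute phase response: the serum amyloid A genes Saa1, Saa2, Saa3 and Saa4, the orosomucoids Orm1 and Orm2, haptoglobin (Hp), hemopexin (Hpx), lipocalin 2 (Lcn2) and inter-alpha-trypsin inhibitor heavy chain 4 (Itih4). All probe sets annotated to exactly 1 of these symbols were taken, which gave 12 probe sets for the 10 genes, out of 18193 genes on the array. They were chosen by symbol with their log2 ratios between these arrays in view, the opposite signs of Saa3 and of Saa1 and Saa2 above all, so levels and ratios below are a description and not a test.

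Hepatocytes came from male FVB mice of 6 to 8 weeks on chow, per the growth protocol. Every mouse had received both plasmids by hydrodynamic injection into a tail vein, in which volume and speed force DNA into hepatocytes: 10 µg of PT3EF5α EzrinT567D and 0.8 µg of pCMV/SB in 2 ml of saline. Ezrin ties the plasma membrane to cortical actin, and the T567D substitution mimics its phosphorylated, active form. The negative group was the GFP- fraction and the positive group the GFP+ fraction sorted 1 week after injection, so the controls had also been through the injection, the collagenase digestion and the sort. The labels disagree on diet and time, because the description field puts both samples at 2 months and has the positive sample, but not the negative, on fast food. Diet and sort fraction cannot be told apart if that field is right. How many mice were used, and whether the fractions share livers, is not stated in the labels. RNA of each fraction was read on 1 Affymetrix Mouse Genome 430 2.0 array. With 1 array per group there is no replicate, no test and no p-value, and each ratio compares these 2 arrays only.

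The acute phase response is the change in plasma protein output by which the liver answers infection or injury. Interleukin 6, acting through STAT3, and interleukin 1 and tumour necrosis factor, acting through NF-kB, reach the hepatocyte and act with C/EBP factors and glucocorticoids on the genes of secreted proteins. Saa1 and Saa2 encode the main inducible apolipoproteins of this response and travel on high density lipoprotein. Saa3 is made by macrophages, fat cells and other cells outside the liver parenchyma as well as by hepatocytes, and Saa4 is the constitutive form.

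A signal was counted as measured above a floor. Sensory receptors best known outside the liver (olfactory, vomeronasal, bitter taste and trace amine) gave 84 probe sets, and the floor was their 95th percentile, which was 252.7 for the negative array and 334.0 for the positive. Of the 10 members, 9 passed the floor of at least 1 array and 8 passed both. Saa3 had a higher signal in the positive array, and the other 8 had lower signals, against 44.9% of the 10178 genes above the floor that were higher and 46.5% that were lower. At least 2-fold higher was reached by 1 member, Saa3, against 1.34% of those genes, and at least 2-fold lower by 0 members, against 0.58%. The median log2 ratio (positive array over negative) was -0.43 over the 9 members and 0.000 over all genes above the floor. Error could be judged only between probe sets of a gene on the same 2 arrays. That spread holds no variation between mice, sorts, RNA preparations or hybridizations, so a ratio beyond it need not exceed the full error. For the 3182 genes having 2 or more above both floors, the difference between the ratios of the brightest pair had an SD of 0.42. It was 0.46 where the dimmer of the pair read under 1000 and 0.33 where it read 1000 or more. The SD of a difference between 2 ratios is wider than that of a single ratio.

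**Figure D1:**
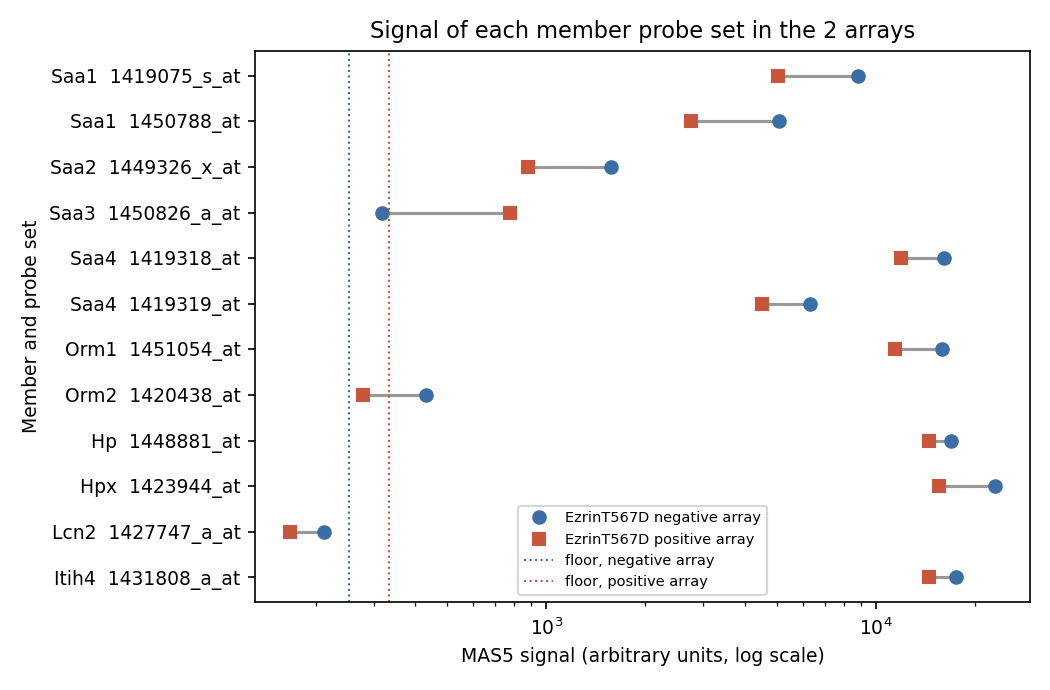
MAS5 signal (log axis) of the 12 member probe sets in the EzrinT567D negative array (circles) and the positive array (squares), with dotted lines at the floor of each array. Saa3 is the member whose square lies right of its circle, and Lcn2 lies left of both floors.

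Saa3 was read by a single probe set, 1450826_a_at, with 317.4 in the GFP- and 778.8 in the GFP+ fraction. The positive array was higher by 461.4 signal units, a log2 ratio of 1.29 or 2.45-fold. The negative signal stood at 1.26 times its floor and the positive signal at 2.33 times its floor, so the lower of these values was close to the receptor probe sets. No second probe set exists for Saa3 to check the ratio. Among the 5867 genes with a mean signal within 2-fold of that of Saa3 (274.1 to 1096.0), 105 were at least 2-fold higher (1.79%) and 30 at least 2-fold lower (0.511%). That range was chosen after the values were seen. It includes genes above the floor in 1 array only, whose ratios are bounds, which can lower these shares.

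Saa1 and Saa2 were read by 3 probe sets, and the positive array was lower in each. The brightest, 1419075_s_at, annotated to Saa1, read 8821.1 in the GFP- and 5048.6 in the GFP+ fraction (log2 ratio -0.81, 1.75-fold lower). The other Saa1 probe set, 1450788_at, read 5089.8 and 2757.7 (-0.88, 1.85-fold lower). The Saa2 probe set, 1449326_x_at, read 1566.7 and 879.3 (-0.83, 1.78-fold lower). The lowest of these 6 signals was 2.63 times its floor. These probe sets do not cleanly separate the paralogs. The suffix _s_at marks probes shared between transcripts of different genes and _x_at probes with close similarity to others. The transcript from which 1419075_s_at was designed belongs to Saa2 in RefSeq and is the same one given for 1449326_x_at, although the annotation names the former Saa1. Naming the probe sets by their source transcript leaves 1450788_at for Saa1 (-0.88) and 1419075_s_at for Saa2 (-0.81), so the direction did not hang on the name.

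The log2 ratio of Saa3 exceeded that of Saa1 by 2.10 and that of Saa2 by 2.13. Over the alternative settings that gave a value, the first difference ranged from 1.91 to 2.18 and the second from 1.97 to 2.13. Settings of the floor, the bounds and the naming change little for genes above both floors, so these ranges do not measure error.

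Saa4 had 2 probe sets with similar ratios. The first, 1419318_at, read 16083.2 in the GFP- and 11942.3 in the GFP+ fraction (-0.43, 1.35-fold lower), and the second, 1419319_at, read 6315.9 and 4528.4 (-0.48, 1.39-fold lower). Both were at least 13.6 times their floor. Saa4 therefore had the sign of Saa1 and Saa2, at a smaller ratio.

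The 4 Saa genes are neighbours on chromosome 7, in the order Saa3, Saa4, Saa1, Saa2 among protein-coding genes of the RefSeq assembly GRCm38.p6. The gene beyond the Saa3 end of the cluster, Saal1, read 719.1 and 652.5 (log2 ratio -0.14). The gene beyond the Saa2 end, Hps5, was below the floor in both arrays, at 209.3 and 309.3. The member with the higher positive signal thus sat at an end of the cluster, next to a gene with a ratio near 0 and next to Saa4, which was lower.

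The 250 bases before the start are given for the 4 Saa genes, of which Saa1, Saa2 and Saa4 were lower and Saa3 was higher, from RefSeq on GRCm38.p6, 5′ to 3′ on the strand of the gene. They lie at chr7:46742981-46743230 (minus strand) for Saa1, chr7:46751583-46751832 (plus strand) for Saa2, chr7:46715677-46715926 (minus strand) for Saa3 and chr7:46732604-46732853 (minus strand) for Saa4. Capitals mark matches to the C/EBP motif TTNNGNAA on either strand (TTNCNNAA on the opposite strand).
Saa1: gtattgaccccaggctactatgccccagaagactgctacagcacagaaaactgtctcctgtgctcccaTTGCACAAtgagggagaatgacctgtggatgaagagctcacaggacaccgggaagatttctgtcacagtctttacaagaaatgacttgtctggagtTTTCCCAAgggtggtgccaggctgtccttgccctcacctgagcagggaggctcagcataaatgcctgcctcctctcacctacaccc
Saa2: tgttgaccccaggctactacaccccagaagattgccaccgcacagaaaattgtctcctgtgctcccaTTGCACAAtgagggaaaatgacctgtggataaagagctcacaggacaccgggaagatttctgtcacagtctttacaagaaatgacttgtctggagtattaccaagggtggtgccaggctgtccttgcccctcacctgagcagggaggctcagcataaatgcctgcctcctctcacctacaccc
Saa3: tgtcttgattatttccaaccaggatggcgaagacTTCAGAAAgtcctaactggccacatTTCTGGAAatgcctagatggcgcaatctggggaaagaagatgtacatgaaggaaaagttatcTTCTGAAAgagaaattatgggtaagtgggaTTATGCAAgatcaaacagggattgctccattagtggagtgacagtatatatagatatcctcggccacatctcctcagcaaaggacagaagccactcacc
Saa4: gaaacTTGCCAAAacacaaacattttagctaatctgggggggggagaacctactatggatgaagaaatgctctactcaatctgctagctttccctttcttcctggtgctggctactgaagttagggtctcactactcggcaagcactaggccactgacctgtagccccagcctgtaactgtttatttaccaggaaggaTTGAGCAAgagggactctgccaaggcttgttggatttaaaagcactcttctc
In a global alignment the windows of Saa1 and Saa2 were identical at 238 of 251 columns (94.8%). The window of Saa3 was identical at 139 of 284 columns with Saa1 (48.9%) and at 135 of 282 with Saa2 (47.9%), and that of Saa4 was 42.6% identical with Saa1, 43.2% with Saa2 and 44.5% with Saa3. Only the pair of Saa1 and Saa2 was thus alike. The identity of unrelated windows was not computed, so the other values, from 42.6% to 48.9%, do not rank closeness. Saa3 held 4 matches to the C/EBP motif, with first bases at -216, -191, -129 and -99 from the start. Saa1 held matches at -182 and -86, Saa2 at -183 only and Saa4 at -245 and -52. This motif was found in 7 of the 8 members with a window, all but Itih4, and in 36.8% of 32851 windows of the same length. Orm1 and Hp had no matching entry. No window of the 8 held the NF-kB consensus (3.9% of all windows), the interleukin 6 response motif CTGGGAA (9.1%) or the glucocorticoid receptor consensus (0.387%). The STAT motif TTCNNNGAA was found in Itih4 only (7.02% of all windows) and TATAAA in Orm2 only (12.4%). All motifs were searched on both strands. A match is a run of letters and not a binding site.

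Orosomucoids, or alpha-1-acid glycoproteins, are plasma lipocalins that bind basic and neutral drugs. Orm1 read 15888.6 in the GFP- and 11406.5 in the GFP+ fraction (log2 ratio -0.48, 1.39-fold lower), more than 30 times the floor in each. Orm2 read 430.2 and 277.5, below the floor in the positive array, which makes it at least 1.29-fold lower. Orm3, which lies between them on chromosome 4 and is not a member, was below both floors at 129.3 and 52.8. The Orm genes are close paralogs, and 1 probe set may not separate them.

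Hemopexin carries free haem and haptoglobin free haemoglobin to the cells that clear them. Hpx read 22926.5 and 15587.8 (negative, then positive array), a log2 ratio of -0.56 and 1.47-fold lower. Hp read 16955.7 and 14501.6 (-0.23, 1.17-fold lower), a ratio within the SD of 0.33 for the difference between brighter probe sets. Itih4, a heavy chain relative of the inter-alpha-trypsin inhibitor family, read 17511.4 and 14467.4 (-0.28, 1.21-fold lower), also within that SD. Hp and Itih4 each have a single probe set. Itih3, the heavy chain gene next to Itih4 on chromosome 14, read 16378.4 and 16080.2 (-0.027).

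Lipocalin 2 binds bacterial siderophores and is strongly induced in hepatocytes by interleukin 6 and interleukin 1. Its probe set 1427747_a_at read 211.6 and 167.4, below the floor in both arrays, so Lcn2 has no ratio here. With this 1 probe set below both floors, a fall in Lcn2, or a change that stayed below the floors, could not be seen. A signal past the positive floor of 334.0 would have given a ratio, and none was read.

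Bright genes as a group leaned lower in the positive array, which bears on 6 of the members. Over the 805 genes with a mean signal over 5000, the median log2 ratio was -0.12, and 72.5% were lower. All 6 members in that range (Saa1, Saa4, Orm1, Hp, Hpx and Itih4) were lower. A log2 ratio of -0.4 or less was found for 4 of the 6 (Saa1, Saa4, Orm1 and Hpx) and for 7.95% of the 805 genes. The limits of 5000 and 0.4 were chosen after the values were seen. A loess correction for the dependence on signal was fitted to probe sets above the floor of at least 1 array. After it the ratios were -0.71 for Saa1, -0.44 for Hpx, -0.37 for Orm1, -0.32 for Saa4, -0.16 for Itih4 and -0.11 for Hp. Saa2 at -0.84 and Saa3 at 1.20 were little altered, and a fit over all probe sets gave -0.84 and 1.21. Below the floors these fits can differ: the signals of Lcn2 gave 0.68 with the former and -0.46 with the latter.

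**Figure D2:**
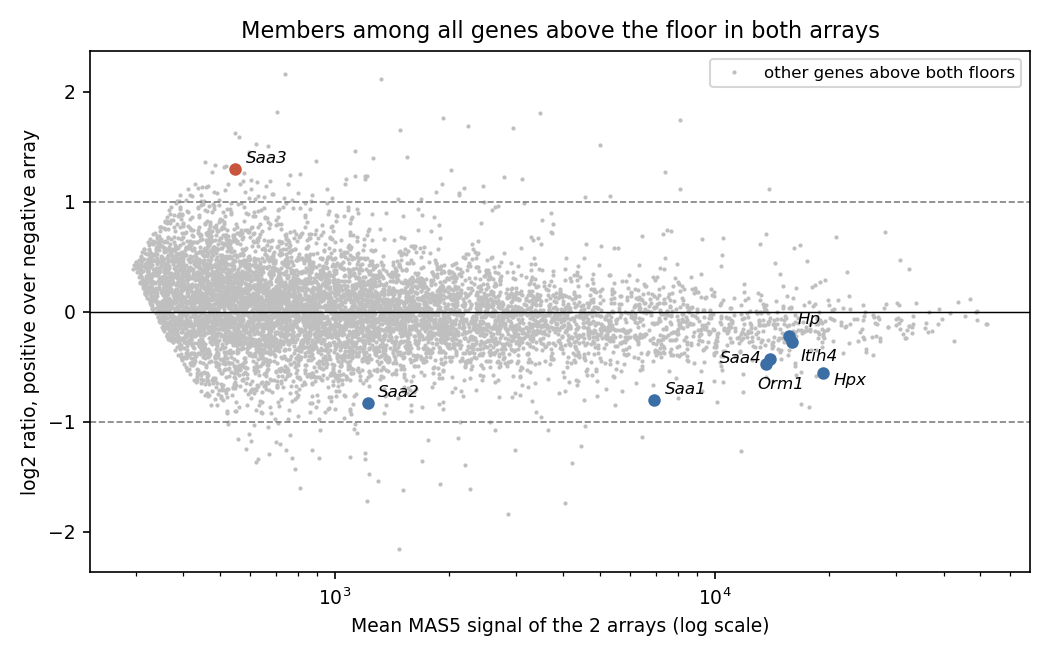
Log2 ratio (positive array over negative) against mean MAS5 signal (log axis) for genes above the floor in both arrays (grey), with the 8 members measured in both labelled and dashed lines at 2-fold. Saa3, at 1.29, lies at the dim end among scattered points, and the bright members lie from -0.81 to -0.23.

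**Figure D3:**
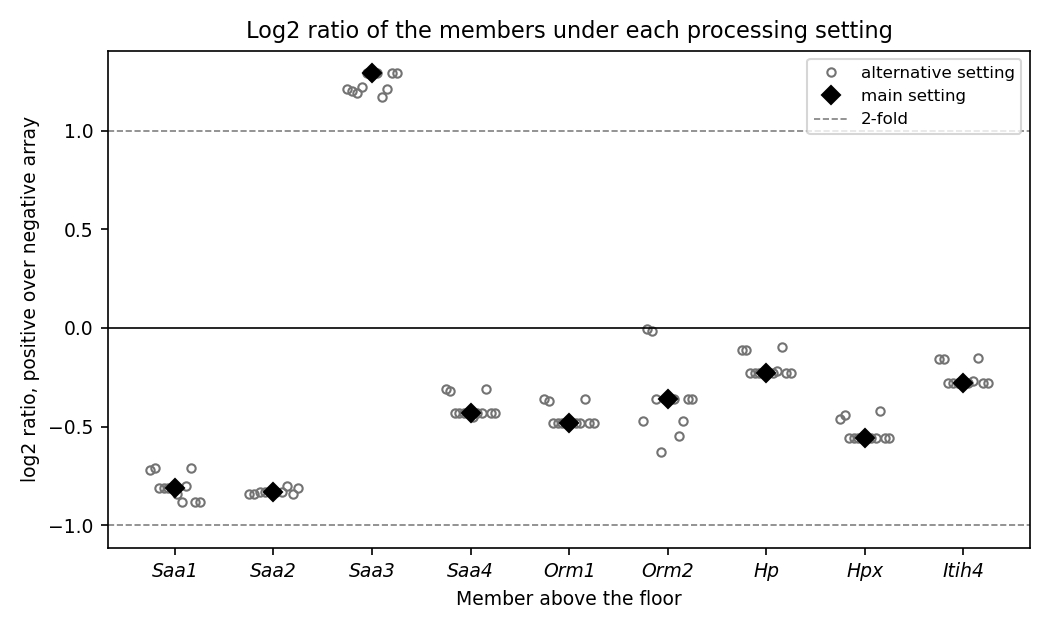
Log2 ratio of the 9 members above the floor with the main settings (black diamonds) and with each alternative setting that gave a value (open circles), with dashed lines at 2-fold. Saa3 stays between 1.17 and 1.29 and Saa1 between -0.88 and -0.71, while Orm2 ranges from -0.63, its ratio with no floor, to a bound of -0.007.

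By Euclidean distance over the log2 signals in the 2 arrays, among 8108 named genes above both floors, the genes most like Saa3 were Bsn (325.8 and 793.7), Nectin1 (324.8 and 724.3) and Wdr38 (341.3 and 814.7). Those most like Saa1 were the apolipoprotein gene Apoa4 (8846.1 and 5123.2), the respiratory complex I gene Ndufs7 (8445.7 and 5318.8) and Sqor (7598.9 and 4847.8). With 2 arrays, likeness means only a similar level and a similar ratio.

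Other positive acute phase genes, those whose products rise in the response, were mostly lower by small amounts. Of 23 listed genes 18 were above the floor, 15 of them lower, 3 higher and none past 2-fold. For comparison, 46.5% of all genes above the floor were lower, and 72.5% of those with a mean signal over 5000. The median log2 ratio of the list was -0.19, which became -0.076 after the loess correction. The part of the lean of bright genes in this median was not tested. The lipopolysaccharide-binding protein gene Lbp (2253.0 to 1520.8, -0.57), the serum amyloid P gene Apcs (7575.5 to 5289.0, -0.52) and the metallothionein Mt1 (11505.5 to 6989.2, -0.72) were farthest from 0. The second probe sets of Lbp and Mt1 had the opposite sign at lower signals. That of Lbp (188.7 and 375.5) was above the floor in the positive array only, with a bound of 0.57. That of Mt1 read 880.6 and 1225.8 (0.48). Ceruloplasmin (Cp), the copper-carrying ferroxidase, had a ratio of -0.32 in its brightest probe set, with others from -0.33 to 0.88. The fibrinogen chains Fga, Fgb and Fgg had ratios of -0.24, -0.15 and -0.13, Crp had -0.22, and the serpin Serpina3n had 0.15 (3295.8 to 3652.9).

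Negative acute phase genes, whose output falls in the response, lay close to 0. Of 14 listed 12 were above the floor, 9 lower and 3 higher and none past 2-fold, beside the 72.5% lower among genes with a mean signal over 5000. Their median was -0.084, which became 0.044 after the loess correction. Albumin (Alb) read 46434.5 and 38679.3 (-0.26), Ambp had -0.25, antithrombin (Serpinc1) -0.24 and fetuin-B (Fetub) 0.22. Transthyretin (Ttr) had a ratio of -0.12. The heavy chain gene Itih1 had a ratio of -0.15.

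Genes of the interleukin 6 and STAT3 pathway had no common direction. Of 17 listed 15 were above the floor, 8 higher and 7 lower, with a median of 0.004. The phosphatase gene Ptpn11 (SHP2), which binds the activated receptor subunit gp130, was the gene past 2-fold, at 1186.8 and 2516.0 (1.08), with a second probe set at 0.50. The kinase gene Jak1 read 1097.0 and 643.7 (-0.77), but its other probe sets had 0.36 and -0.51. The C/EBP delta gene Cebpd read 444.3 and 681.3 (0.62), and its second probe set, above the floor in the negative array only, had a bound of -0.094. The feedback inhibitor Socs3, a STAT3 target, had -0.39, with other probe sets at -0.050 and at a bound of 0.000. That bound came from signals of 307.4 and 165.9, above the floor in the negative array only. Il6ra and Cebpb had 0.13 and 0.12. Stat3 itself had -0.091, with other probe sets at -0.17 and 0.25.

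Genes of interleukin 1, tumour necrosis factor and NF-kB signalling were also mixed. Of 22 listed 14 were above the floor, 7 higher, 5 lower and none past 2-fold, and their median was 0.027. The highest were at low signals: the adaptor Traf6 at a bound of 0.83 (202.8 and 450.3), the nuclear NF-kB cofactor Nfkbiz at 0.77 (357.3 and 607.4) and Nfkb2 at 0.69 (396.9 and 641.8). The interleukin 1 receptor accessory protein gene Il1rap was lower (4856.8 to 3701.7, -0.39), with other probe sets at 0.17 and 0.009. The transcripts of the cytokines Il6, Il1a and Tnf were below both floors, and Il1b read 308.8 and 311.2, above the floor in the negative array only.

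Of 8 glucocorticoid genes 7 were above the floor, 4 higher and 3 lower, with a median of 0.029. The cortisone-activating enzyme Hsd11b1 read 20688.3 and 16244.4 (-0.35), Tat, a classic target, had -0.27, and Sgk1 and Dusp1 had 0.32 and 0.16. Of 9 receptors and handling genes for the member proteins 6 were above the floor, 3 higher and 1 lower, with a median of 0.016. The lipocalin 2 receptor gene Slc22a17 (271.6 and 427.9, 0.66) and the haem-degrading enzyme Hmox1 (274.4 and 373.8, 0.45) were near the floor in the negative array. The hemopexin receptor Lrp1 had 0.033. Its second probe set (118.3 and 417.5), above the floor in the positive array only, had a bound of 0.72. The high density lipoprotein receptor Scarb1 had -0.27.

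**Figure D4:**
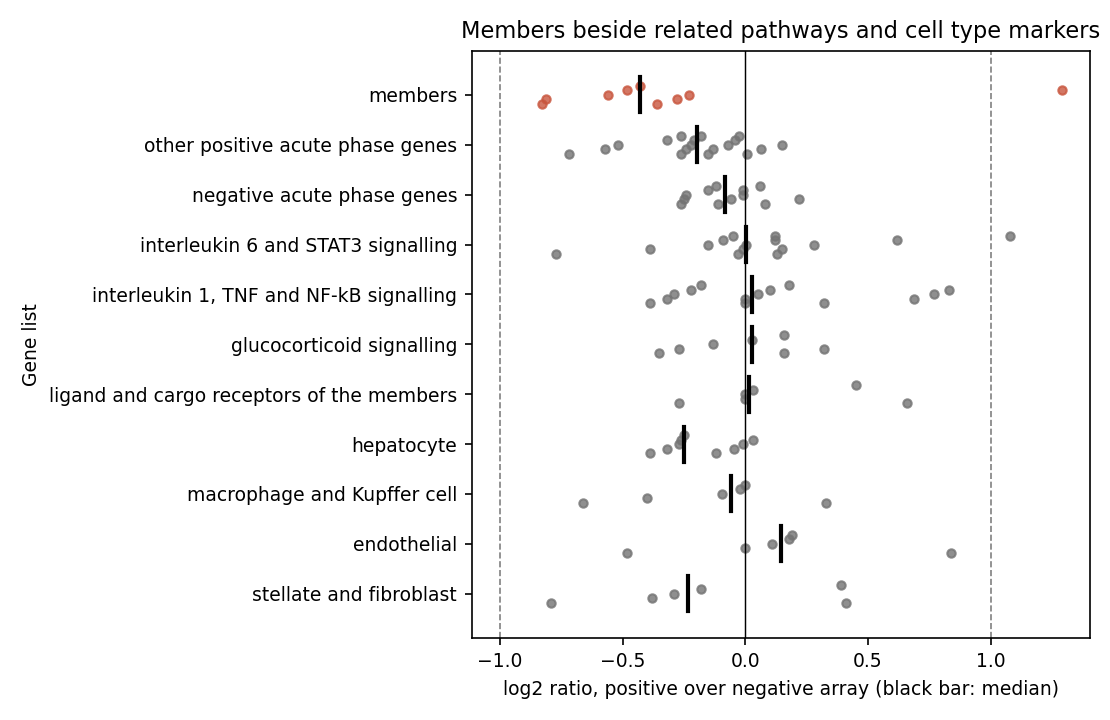
Log2 ratio (positive array over negative) for each gene above the floor (points) and the median (black bar) in the members, 6 related pathway lists and 4 marker lists, with dashed lines at 2-fold. The member median of -0.43 lies left of the pathway medians, which run from -0.19 to 0.029, and Saa3 is the rightmost point of the members.

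Both fractions carried the hepatocyte markers, with 9 of 9 measured genes above the floor in both arrays. Their median log2 ratio was -0.25, 8 of the 9 were lower, and the summed signal was 270705.3 in the GFP- and 241786.7 in the GFP+ fraction. All 9 had mean signals over 5000, where 72.5% of genes were lower and the median was -0.12. In such bulk samples the lean of bright genes, fewer cells of a type and less RNA per cell cannot be told apart. Because Saa3 is also made by macrophages, fat cells and stromal cells, their markers are given beside it. Of 14 macrophage and Kupffer cell markers 6 were above the floor in at least 1 array, and the summed signal was 4619.3 in the GFP- and 3496.7 in the GFP+ fraction. Kupffer cell Clec4f read 379.2 and 354.7, C1qb 1214.2 and 765.8, Lyz2 690.4 and 523.4, and Csf1r 558.7 and 702.1. Cd5l (339.5 and 144.8) and Cd163 (308.0 and 262.3) were above the floor in the negative array only, with bounds of -0.023 and 0.000. Adgre1, Vsig4, Marco and Timd4 were among those below both floors. The sums include markers below both floors, and over the 6 markers above a floor they were 3490.0 and 2753.1.

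Markers of 4 cell types were nowhere above the floor: 0 of 8 measured for neutrophils, 0 of 5 for cholangiocytes, 0 of 4 for mesothelial cells and 0 of 3 for adipocytes. Of the neutrophil genes, S100a8 read 23.6 and 253.1, below both floors. S100a9, Camp, Ltf, Cxcr2 and Csf3r read lower in the positive array and Mpo and Ngp slightly higher, also below both floors. Stellate cell and fibroblast markers were above the floor for 6 of 9, with sums of 3440.7 and 2928.2, and endothelial markers for 6 of 8, with sums of 3478.2 and 3757.1. Lymphocyte markers had 1 of 6 above the floor, Cd79a in the negative array. The part of other cell types in the Saa3 ratio was not tested. The ezrin transgene gave no check of the sort, since neither Ezr probe set passed a floor (135.3 and 15.7, and 7.6 and 13.6).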

How the data were processed

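The authors deposited linear MAS5 intensities, 1 per probe set, per the submitters' processing notes. Version, detection calls, settings and genome build are not stated there. Both arrays had a 2% trimmed mean of 500.0, so a shift of the whole transcriptome cannot be seen.

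Probe sets with 1 gene symbol in the platform annotation (34945 of 45101) were used. The probe set with the highest mean signal stood for its gene in counts and lists. A dim signal was raised to its floor to give a bound, which was set to 0 where it pointed away from the measured side. The log2 ratio is the positive over the negative array, with no pseudocount. Alternatives changed the scaling, the floor, the bounds and the choice of probe set. As no replicates exist, a ratio was said to move when it changed by more than the SD between probe sets of a gene. The members and lists were chosen with earlier results of these data known. Named genes are the members, the 4 genes per pathway list with the largest ratios, the 3 genes nearest to Saa3 and Saa1, and further list genes picked after their values were seen. The ratio script, tested on simulated data, and the motif search ran in Python 3.11.15 with Biopython 1.88 and statsmodels 0.14.6.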

Additional observations from a re-analysis of the deposited data

How the results depend on the processing

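No paired analysis was possible because each group holds 1 array. Of 12 alternatives, 3 were added after seeing the data (loess over all probe sets, leaving out only _s_at and _x_at probe sets, and naming probe sets by source transcript). No member above the floor changed direction in the alternatives that gave it a value (10 for Saa2, 11 for Saa3 and Itih4, 12 for the other 6), and the median of the members ran from -0.45 to -0.32. Several alternatives could not change a sign. Saa3, with its single probe set, stayed at 1.29 with no floor, with bounds as computed, with the mean over probe sets and with naming by source transcript. These counts are therefore no measure of robustness. With _s_at, _x_at and _a_at probe sets left out, 0 members were higher, because the single probe set of Saa3 was left out. The median of negative acute phase genes ran from -0.15 to 0.081, and those of the interleukin 6, interleukin 1 and glucocorticoid lists also took both signs. Over all genes, the 136 of 10178 that were at least 2-fold higher became 438 of 10063 with the loess correction fitted above the floor. They became 80 of 8653 with the 99th percentile floor and 83 of 9303 with 1 floor for both arrays. With no floor they were 1629 of 18193, and with an offset of 50 they were 723 of 18193. The 59 that were at least 2-fold lower became 1655 with no floor and 709 with the offset, each of 18193, and 38 of 10204 with the mean over probe sets. The cause of these shifts was not tested. Signal near the floor limits Saa3, Orm2 and Lcn2.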
